A study of Mus musculus with 4 samples.

Results

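This account describes peaks called in the second of 2 ChIP libraries for phosphorylated STAT3 that shared not a single base with any peak of the first. They are calls of a peak caller, and none was tested here as a binding site. A member is a peak of pSTAT3 ChIP replicate 2 on chromosomes 1 to 19 that overlaps no peak of pSTAT3 ChIP replicate 1. Of 26109 replicate 2 peaks on these chromosomes, 2015 met this rule (7.72%), and the other 24094 overlapped a replicate 1 peak. Over all sequences the replicate 2 list holds 26649 peaks. In the other direction, 18017 of 41453 replicate 1 peaks overlapped no replicate 2 peak. Members were chosen by the measured peak calls of the same libraries, which also gave their height, width and enrichment, so these values are a description and were not tested.

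The cells were primary oligodendrocyte progenitors from the cortex of C57BL/6 mice, whose daughters mature into the myelin-forming cells of the brain. They were kept in a pair of growth factors that hold progenitors in division, PDGF-AA at 10 ng/ml and the fibroblast factor bFGF at 20 ng/ml. Every dish was given the cytokine CNTF at 100 ng/ml for 15 min, the inputs included, so no untreated group is at hand. The series has 2 libraries immunoprecipitated for tyrosine-phosphorylated STAT3 and 2 input libraries. Lysed cells were pooled before sonication, per the labels' protocols, and no label says that the ChIP libraries came from separate cultures. The cell type is taken from the labels, since peaks near marker genes do not measure their expression.

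CNTF binds a receptor complex that contains gp130 and activates JAK kinases, which phosphorylate STAT3 on a tyrosine. The phosphorylated protein forms dimers, enters the nucleus and binds palindromic sites with a TTC arm and a GAA arm. In neural progenitors and glia, this pathway is known for switching on its own feedback inhibitors, immediate early genes and astrocyte genes. A peak here is a place where sequenced fragments stacked above the local background, its pileup is the number of fragments at the summit, and its fold enrichment is the pileup over the local background with 1 added to each. The background that the caller used at a peak can be worked back from these values and is called the implied local background. Its lowest value is set by the whole library. That value was 2.91 fragments for replicate 2, against 4.72 for replicate 1, which is 1.62 times as high. Read totals are not given in the sources used, so no other measure of depth is at hand. Where replicate 1 has no peak its signal was not analysed, so a member is a region not called in replicate 1, and not a region shown to be free of signal there.

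Of the members, 109 had their summit in the stretch from 250 bases before to 50 bases after a RefSeq transcription start, and the sequence at hand is that of these start windows. These 109 summits fell in 132 start windows of 124 genes. The palindrome TTCNNNGAA, where N is any base and which reads the same on either strand, was found in 14 of the 132 windows (10.6%, 95% Wilson interval 6.42 to 17%). It was found in 15.2% of 2578 windows with the summit of an overlapping replicate 2 peak, in 6.98% of 2007 windows with a replicate 1-only summit and in 8.34% of all 31365 windows. The interval of the members' windows thus includes the share in all windows and the share under overlapping peaks. Windows that hold the same summit share bases, so windows are not independent and the intervals of window shares are too narrow. Below are the 4 windows in which the match lies inside the member, taken from the 5 highest fold enrichments among the 14. The window of Tob1 follows them as the start with the highest fold enrichment of any member and without a match. Capitals mark TTCNNNGAA on the printed strand, sequences are from RefSeq (build GRCm38.p6), and the transcription start is the base after the first 250.
Olfml1 (chr7:107567183-107567482, plus strand): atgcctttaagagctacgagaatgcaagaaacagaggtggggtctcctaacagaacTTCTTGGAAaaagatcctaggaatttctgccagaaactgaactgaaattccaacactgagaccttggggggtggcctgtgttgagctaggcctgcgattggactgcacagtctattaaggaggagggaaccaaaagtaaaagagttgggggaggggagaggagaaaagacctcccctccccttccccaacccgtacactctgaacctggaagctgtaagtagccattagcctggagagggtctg
Adar (chr3:89730468-89730767, plus strand): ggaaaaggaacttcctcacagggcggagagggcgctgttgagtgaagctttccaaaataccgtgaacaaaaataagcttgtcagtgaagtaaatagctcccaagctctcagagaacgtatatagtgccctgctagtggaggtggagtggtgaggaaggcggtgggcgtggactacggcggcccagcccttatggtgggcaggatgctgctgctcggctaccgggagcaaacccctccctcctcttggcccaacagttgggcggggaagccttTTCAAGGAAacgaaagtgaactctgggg
2310011J03Rik (chr10:80320499-80320798, minus strand): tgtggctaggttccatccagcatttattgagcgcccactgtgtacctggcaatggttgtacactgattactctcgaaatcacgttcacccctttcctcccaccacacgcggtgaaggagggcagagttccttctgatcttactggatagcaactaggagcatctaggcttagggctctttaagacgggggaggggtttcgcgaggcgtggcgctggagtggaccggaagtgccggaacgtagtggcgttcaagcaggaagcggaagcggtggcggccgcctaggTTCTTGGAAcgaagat
Gm35815 (chr2:178680388-178680687, plus strand): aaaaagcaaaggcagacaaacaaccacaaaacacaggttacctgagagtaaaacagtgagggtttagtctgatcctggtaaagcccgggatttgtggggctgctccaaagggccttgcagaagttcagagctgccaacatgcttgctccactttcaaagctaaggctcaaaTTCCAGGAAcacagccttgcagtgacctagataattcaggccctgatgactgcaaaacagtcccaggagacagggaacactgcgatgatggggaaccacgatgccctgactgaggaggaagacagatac
Tob1 (chr11:94211204-94211503, plus strand): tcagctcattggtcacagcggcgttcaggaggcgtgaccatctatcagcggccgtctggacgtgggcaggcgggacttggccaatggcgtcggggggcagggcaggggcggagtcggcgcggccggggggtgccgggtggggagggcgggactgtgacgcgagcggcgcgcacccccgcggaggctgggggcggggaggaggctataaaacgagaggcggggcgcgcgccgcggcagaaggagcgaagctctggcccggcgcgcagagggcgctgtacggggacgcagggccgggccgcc

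Olfml1 encodes a secreted protein of the olfactomedin family. Its match TTCTTGGAA begins 194 bases before the start, and the summit of the member, with 15 fragments and 4.1-fold enrichment, lies 188 bases before it. Adar, the interferon-inducible enzyme that edits adenosine in RNA, has its match TTCAAGGAA 22 bases after the start and a member summit 30 bases before it, with 14 fragments and 3.84-fold enrichment. In Gm35815, a predicted gene, the match TTCCAGGAA lies 79 bases before the start under a member of 13 fragments and 3.58-fold enrichment. The match in 2310011J03Rik, TTCTTGGAA, begins 34 bases after the start under a member of 15 fragments and 3.74-fold enrichment. The remaining window of the 5, that of the phospholipase gene Plch1, holds TTCTTTGAA at 210 bases before the start, outside the member's edges. Tob1 encodes an antiproliferative protein, and its member had 19 fragments and 5.12-fold enrichment with the summit 47 bases after the start. A match is a string of letters and was not tested as a binding site.

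The tighter palindrome TTCCNGGAA, each match of which is also a TTCNNNGAA match, was present in 2 of the 132 windows (1.52%, interval 0.416 to 5.36%), against 5.47% of windows under overlapping replicate 2 summits and 1.18% of all windows. When the overlapping summits were limited to those with 9 to 19 fragments, the share with TTCNNNGAA was 7.32% and the share with TTCCNGGAA 0.714% of 1120 windows. The site of AP-1 factors, TGANTCA, which also reads the same on either strand, was in 0 of the 132 windows, an interval of 0 to 2.83%. It was in 4.85% of windows under overlapping summits, in 3.89% of those under replicate 1-only summits and in 7.85% of all windows. CCAAT, searched on either strand, was in 34.1% of the members' windows, 35.8% of the overlapping windows, 38.6% of the replicate 1-only windows and 37.3% of all. The GC box GGGCGG, also on either strand, was in 56.8% of the members' windows, 61.7% of the overlapping windows, 63.7% of the replicate 1-only windows and 36% of all. The windows under peaks were richer in G and C, with a median of 62.3% under members, 60.7% under overlapping peaks and 62.3% under replicate 1-only peaks, against 53% over all windows. Under overlapping summits of 9 to 19 fragments the median was 62%. With that limit AP-1 was in 4.2%, CCAAT in 33.3% and the GC box in 63.3% of windows. The shares of TTCNNNGAA and TTCCNGGAA thus fell with the limit on height, while those of the other strings changed less. The separate parts of height and base composition were not tested.

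Most members were small. Their median pileup was 13 fragments, against 21 in overlapping replicate 2 peaks. It was 22 in replicate 1-only peaks, which were counted in the other library, so these pileups are not on the same scale. Multiplied by 1.62, the ratio of the lowest backgrounds, the median of members with an implied background up to 20 fragments becomes 21.1 fragments. The median fold enrichment was 3.33 in members, 5.12 in overlapping peaks and 3.67 in replicate 1-only peaks. The median width was 180 bp in members (95% order-statistic interval 177 to 183 bp), against 284 bp in overlapping peaks and 225 bp in replicate 1-only peaks. The narrowest width in the replicate 2 list, 151 bp, was that of 436 members (21.6%) and of 3.59% of overlapping peaks. In the replicate 1 list the narrowest width was 163 bp, so widths of the libraries are not on the same scale either. The median -log10 q was 2.82 in members, 8.08 in overlapping peaks and 5.44 in replicate 1-only peaks, and 604 members (30%) had a value under 2, against 5.27% of overlapping peaks. The lowest -log10 q was 0.602 in members and in overlapping peaks alike. A fold enrichment of 5 or more was held by 28 members (1.39%) and by 51.1% of overlapping peaks.

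The share of replicate 2 peaks without an overlap fell with height. With 9 to 10 fragments, 150 of 294 peaks were members (51%, interval 45.3 to 56.7%). With 11 to 12 fragments the share was 33.7%, with 13 to 14 it was 20.3%, with 15 to 16 it was 11.8%, and with 17 to 19 it was 5.33%. From 20 to 24 fragments, 44 of 4034 peaks were members (1.09%), from 25 to 29 fragments 2 of 2264 (0.0883%), and from 30 to 49 fragments 0 of 4256, with an upper limit of 0.0902%. Of 3465 peaks with 50 or more fragments, 70 were members (2.02%), and these stand apart in a way described below. Heights chose no member directly, but a peak must pass the caller in replicate 2 and not in replicate 1, so the fall is given as a description. At the lowest background, replicate 2 called peaks from 9 fragments up and replicate 1 from 13 fragments up, and 54.4% of members lay at that lowest background, against 37.7% of overlapping peaks. These limits are raw counts of libraries whose lowest backgrounds differ 1.62-fold. Multiplied by that ratio, the lowest pileup of any member becomes 14.6 fragments. All 1096 members at the lowest background then reach at least 13 fragments. This follows from the calling limits, since replicate 2 called no peak there under 9 fragments, and is no separate result about the members. What set the missing replicate 1 calls was not tested.

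**Figure D1:**
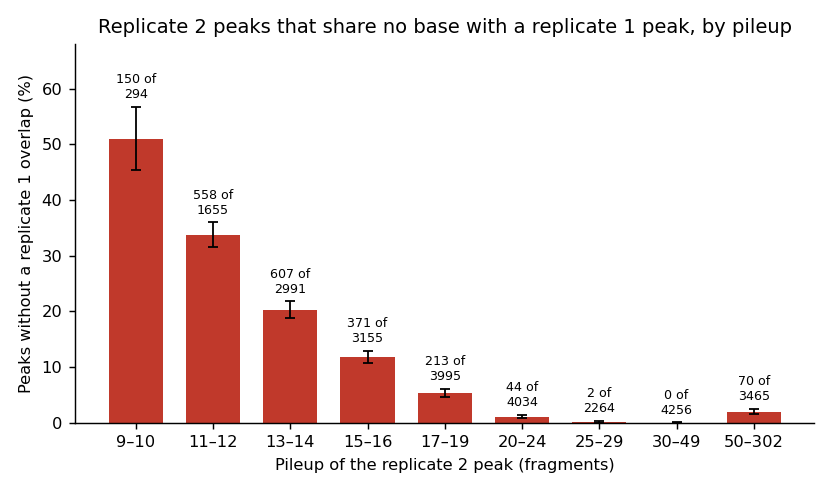
The share of replicate 2 peaks that share no base with a replicate 1 peak (y axis, percent) is drawn for 9 classes of pileup (x axis, fragments at the summit). Bars give the share, error bars the 95% Wilson interval and labels the counts, and the share falls from class to class until the last, where 70 of 3465 peaks are members.

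Members were also narrower than overlapping peaks of the same height. Among peaks with 13 to 14 fragments, the median width was 176 bp in 607 members (interval 170 to 180 bp) and 200 bp in 2384 overlapping peaks (196 to 204 bp). Among peaks with 17 to 19 fragments it was 186 bp in 213 members (177 to 191 bp) and 227 bp in 3782 overlapping peaks (223 to 229 bp). Peaks of the narrowest width made up 8.92% of the members and 2.19% of the overlapping peaks in that class. In the same class the median fold enrichment was 4.36 in members and 4.53 in overlapping peaks. Fold enrichment is worked from pileup and background, so a class of pileup largely sets it, and its likeness is no separate result. A wider peak has more bases with which to touch a replicate 1 peak, so width and the rule are tied.

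Pileup and background divided the members into a large and a small set with an empty stretch between them. The large set held 1945 members with an implied background of up to 10.3 fragments, a pileup of 9 to 29 fragments with a median of 13, and a fold enrichment of 2.26 to 6.4 with a median of 3.33. The small set held 70 members with an implied background of 34.2 to 157 fragments, a pileup of 55 to 297 fragments with a median of 252, and a fold enrichment of 1.42 to 2.24 with a median of 1.85. A division at 20 fragments of implied background, set after the values were seen, separates them. Of all replicate 2 peaks, 130 had a background over 20 fragments (0.498%), and 53.8% of those were members. Of the other 25979 peaks, 7.49% were members.

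**Figure D2:**
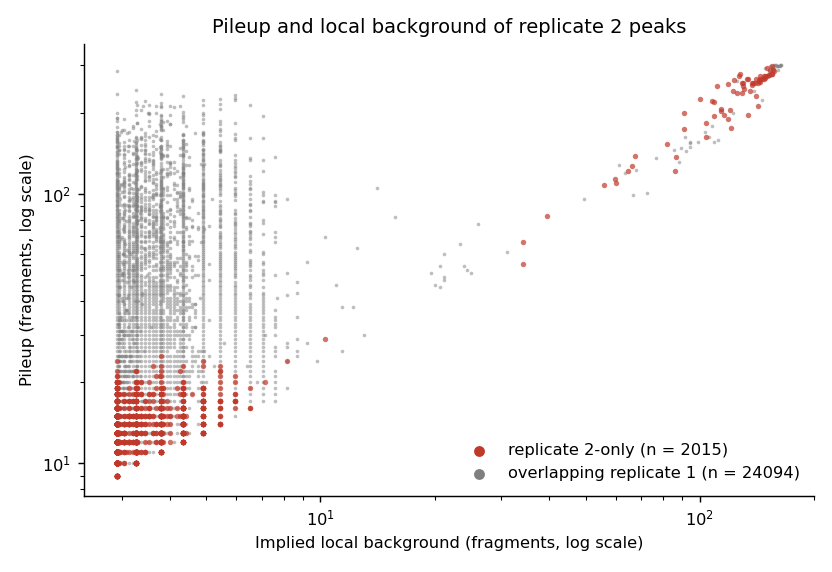
Each point is a replicate 2 peak, with its implied local background (x axis, fragments, log scale) and its pileup (y axis, fragments, log scale). Members (n = 2015) are red and overlapping peaks (n = 24094) grey, and the 70 members at the upper right are parted from the 1945 at the lower left.

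Within the large set, the highest enrichment was 6.4-fold with 24 fragments at chr12:9132231-9132433, in sequence outside any gene. The nearest RefSeq start was that of Wdr35, a component of transport in cilia, at 158 kb, and a replicate 1 peak lay 153 bp away. The next was 5.89-fold with 22 fragments at chr1:172126743-172126920 inside a gene, with the nearest start that of Dcaf8, an adaptor of a ubiquitin ligase, at 21.2 kb. The nearest replicate 1 peak was 43.9 kb from it. The 12 members with the highest fold enrichment ranged from 5.38-fold to 6.4-fold and from 20 to 25 fragments. They include members nearest to Sorcs1, a sorting receptor of neurons (5.63-fold), Pum3, an RNA-binding protein of the nucleolus (5.4-fold), Cldn19, a tight-junction claudin (5.38-fold), and Chchd6, a subunit of the mitochondrial cristae complex (5.38-fold). None of these 12 lay within 1 kb of a start, and the nearest, at Gm39813, was 6.74 kb away.

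The 70 members of high background were gathered in few places. They lay in 27 windows of 1 Mb, of which 23 held 1 member each, and 39 of the 70 (55.7%) lay on chromosome 9 between bases 3003982 and 3038292. Before 4 Mb of that chromosome, replicate 2 had 52 peaks covering 18007 bases, with a median pileup of 270 fragments, a median background of 148 fragments and a median fold enrichment of 1.84. Replicate 1 had 15 peaks there covering 3684 bases, with a median pileup of 322 fragments, a median background of 260 fragments and a median fold enrichment of 1.24. The pileups of the replicate 1 peaks ranged from 22 to 326 fragments, and 5 of the 15 had that highest value, which is also the highest of the replicate 1 list. Pileups are not scaled for depth, and the signal of replicate 1 between its peaks was not analysed. As background, the first assembled sequence of mouse chromosome 9 holds satellite repeats, at which reads from many copies can be stacked. Whether repeats set these calls was not tested.

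Outside chromosome 9, chromosome 14 had 4 such members between bases 19416119 and 19418289, with 236 to 267 fragments, and chromosome 2 had 2 between bases 98663808 and 98665219, with 221 and 265 fragments. The member of this set with the highest -log10 q, 26.9, lay at chr3:159939409-159939677 with 278 fragments and 2.17-fold enrichment, at 99.9 kb from the start of Wls, which carries Wnt proteins to the cell surface. Of the 70, 61 lay outside any gene (87.1%, interval 77.3 to 93.1%), and 1 of the 68 on chromosomes with listed starts lay within 1 kb of a start. All 12 members of highest pileup, from 274 to 297 fragments, belong to this set, and 10 of these 12 are on chromosome 9. The 12 members of highest fold enrichment include none of the 70.

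Members occurred on all 19 autosomes. Their share of the replicate 2 peaks of a chromosome averaged 7.73 ± 1.14% (SD, n = 19 chromosomes), with the lowest share on chromosome 4 (6.1%) and the highest on chromosome 9 (10.7%). Without peaks of high background the mean share was 7.5 ± 0.81%, still lowest on chromosome 4 (6.05%) but now highest on chromosome 14 (9.04%). Chromosome 9 then stood at 8.25% (interval 6.93 to 9.79%), which includes the share of 7.49% over all chromosomes. Of the 19 intervals, 1 left out that share. The density of members was 0.839 ± 0.19 per Mb (SD, n = 19), and without high background it was lowest on chromosome 12 (0.642 per Mb) and highest on chromosome 11 (1.28 per Mb). All these values are from 1 library, and chromosomes are not replicates of a condition.

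**Figure D3:**
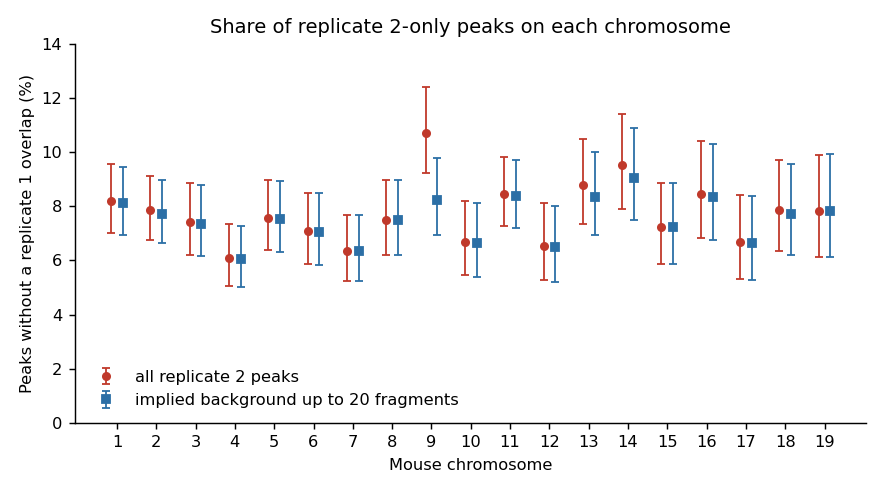
The share of replicate 2 peaks without a replicate 1 overlap (y axis, percent) is shown for each mouse autosome (x axis), with 95% Wilson intervals. Red circles take all replicate 2 peaks and blue squares those with an implied background of up to 20 fragments, and chromosome 9 stands at 10.7% as a red circle and at 8.25% as a blue square.

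Many members lay close beside a replicate 1 peak. The gap between edges was under 100 bp for 84 members (4.17%) and under 1 kb for 535 (26.6%, interval 24.7 to 28.5%). For replicate 1-only peaks the gap to the nearest replicate 2 peak was under 1 kb in 14.2%. The median gap was 6.47 kb for members and 15.6 kb for replicate 1-only peaks, but the list searched is longer for members, so these values cannot be compared as nearness. The nearest replicate 1 peak of 297 of the 535 close members (55.5%) overlapped another replicate 2 peak, against 56.5% of all replicate 1 peaks. The median fold enrichment of these neighbours was 4.37, against 4.72 over all replicate 1 peaks. Close members and the 1480 members at 1 kb or more had the same medians of 13 fragments and 3.33-fold enrichment.

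At the edge of the rule, the member closest to a replicate 1 peak lay in Trp53, the gene of the tumour suppressor p53, at chr11:69581055-69581248. A gap of 4 bp parted it from a replicate 1 peak, it had 17 fragments and 4.23-fold enrichment, and the replicate 1 peak had 27 fragments and 4.52-fold enrichment. The next members lay at chr4:106099936-106100183, with a gap of 4 bp and 3.33-fold enrichment, and in Mfsd14b, a gene of a membrane transporter family, with a gap of 5 bp and 3.29-fold enrichment. Just outside the rule, the 3 replicate 2 peaks with the shortest overlap shared 3, 5 and 6 bases with a replicate 1 peak and had 3.58-fold, 3.71-fold and 3.14-fold enrichment. The values on either side of the edge are alike in size, and membership there turns on a few bases.

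At the other end, 97 members lay over 100 kb from any replicate 1 peak, and the largest gap was 1525 kb. Among members with at least the median fold enrichment, the farthest lay at chr8:62752725-62752922, at 645 kb from any replicate 1 peak, with 12 fragments and 3.33-fold enrichment. Its nearest start is that of Spock3, a proteoglycan of the extracellular matrix, at 198 kb. The next lay at 633 kb, with 15 fragments, 4.1-fold enrichment and the placental prolactin-like hormone gene Prl6a1 as its nearest start at 19.9 kb. The 8 farthest of these had gaps of 278 to 645 kb, 12 to 16 fragments and 3.33-fold to 4.35-fold enrichment, and none stood within 10 kb of a start.

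No member overlapped a reproducible region, and at 25 kb members were about as near to the 12729 reproducible autosomal regions of the authors' deposited table as other peaks outside that table. Within 25 kb of a region lay 848 members (42.1%, interval 39.9 to 44.3%), against 43.9% of the 10838 overlapping replicate 2 peaks outside the table and 42.5% of replicate 1-only peaks. Over all 12853 replicate 2 peaks outside the table the share was 43.6%. The median distance was 35.2 kb for members (interval 31.8 to 38.9 kb), 32.5 kb for the overlapping peaks outside the table and 34.5 kb for replicate 1-only peaks. Within 1 kb the members' share was higher, at 8.93% (7.76 to 10.3%), against 6.44% (5.99 to 6.92%) of the overlapping peaks outside the table and 7.16% (6.79 to 7.55%) of replicate 1-only peaks. All 180 members within 1 kb of a region were close members, with a gap under 1 kb to a replicate 1 peak. Reproducible regions rest on peaks of both replicates, so this, and the lack of overlap with regions, follow largely from the rule. None of the 70 members of high background lay within 5 kb of a region, and their median distance was 2273 kb.

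**Figure D4:**
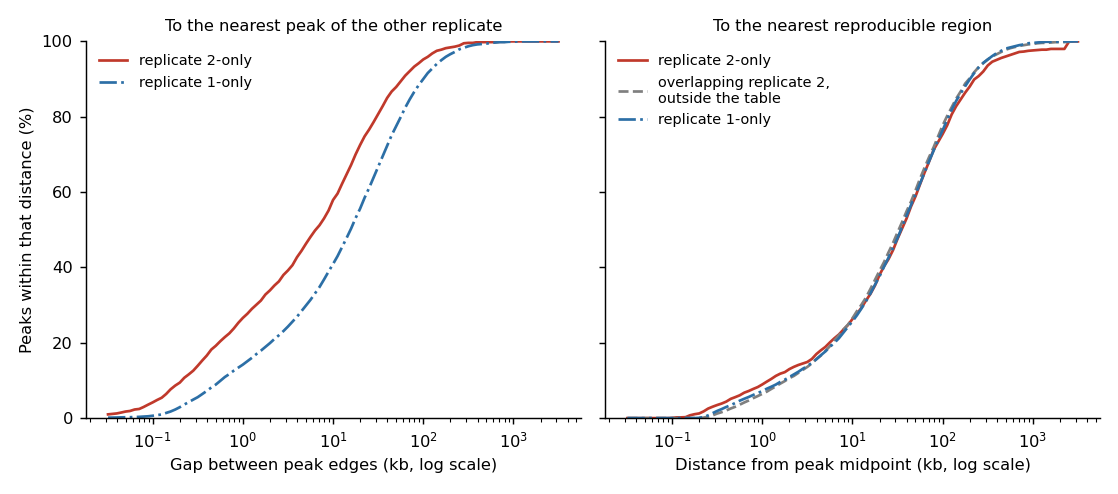
The left panel shows the share of peaks (y axis, percent) whose gap to the nearest peak of the other replicate is within a distance (x axis, kb, log scale), for replicate 2-only and replicate 1-only peaks. The right panel shows the share within a distance of a reproducible region, also for overlapping replicate 2 peaks outside the table, and the curves have medians of 32.5 to 35.2 kb, while within 1 kb that of the members is the highest (8.93%).

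The 380 members within 5 kb of a region were spread over 369 regions (2.9% of all). Of these, 10 regions had 2 or more members, and the most was 3, beside chr12:101023009-101023663, a region with 17.4-fold enrichment in replicate 2 and 26.9-fold in replicate 1. Its members lay 241, 3154 and 4217 bp from the region. Regions with 2 members included 1 at the start of Nup153, a protein of the nuclear pore, with 35.8-fold enrichment in replicate 2 and members 247 and 997 bp away. Another, nearest to the fibrillar collagen gene Col5a3, had 36.9-fold enrichment in replicate 2 and members 269 and 3336 bp away. A region at Bcl6, a transcriptional repressor, had 33.3-fold enrichment in replicate 2 and a member at 3205 bp. A region at Bbc3, which encodes the cell death protein PUMA, had 31.6-fold enrichment and a member at 499 bp. None of these members shared a base with its region. Over the 369 regions the median fold enrichment in replicate 2 was 8.22, against 7.54 over all regions, so the regions named here lie above that median. Regions with 2 members also included 1 of 6.4-fold enrichment.

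Members were placed differently from other peaks around transcription starts. Distances were taken from the peak's midpoint to the nearest of 31396 RefSeq starts, which were at hand for every autosome but chromosome 18, and so for 1938 members. Within 250 bp of a start lay 161 members (8.31%, interval 7.16 to 9.62%), against 12.6% (12.2 to 13%) of overlapping peaks, 13.7% (13.2 to 14.2%) of replicate 1-only peaks and 12.2% of all replicate 2 peaks. From 251 to 1000 bp lay 195 members (10.1%, 8.8 to 11.5%), against 7.46% (7.13 to 7.81%) of overlapping peaks and 8.27% (7.87 to 8.69%) of replicate 1-only peaks. Within 1 kb in all lay 356 members (18.4%, 16.7 to 20.2%), against 20% of overlapping peaks, 22% of replicate 1-only peaks and 19.9% of all replicate 2 peaks. Members as a whole were thus less frequent at the start itself and more frequent in the ring around it, but the ring excess was not seen in members 1 kb or more from replicate 1 peaks. These intervals cover counting error over peaks only, and peaks of 1 library are not replicates.

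**Figure D5:**
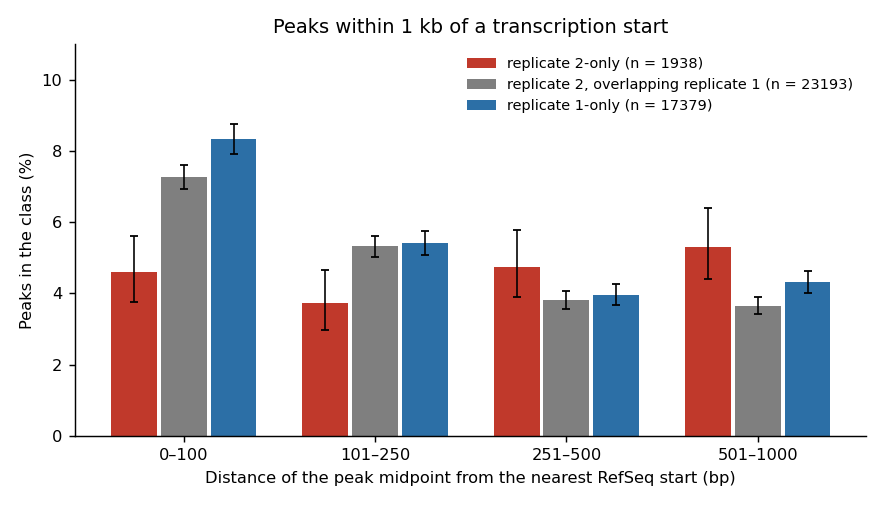
The share of peaks (y axis, percent) is drawn by the distance of the midpoint from the nearest RefSeq start (x axis, bp), for members, overlapping replicate 2 peaks and replicate 1-only peaks, with 95% Wilson intervals. Members are the lowest bar up to 250 bp (8.31% in both classes together) and the highest bar from 251 to 1000 bp (10.1%).

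The lower share at starts was also seen among the lowest peaks. Among peaks with 9 to 14 fragments, 8.03% of 1271 members (6.65 to 9.65%) lay within 250 bp of a start, against 14.2% of 3496 overlapping peaks (13.1 to 15.4%). Among peaks with 15 to 19 fragments the shares were 10.3% of 553 members (8.04 to 13.1%) and 13.1% of 6310 overlapping peaks (12.3 to 13.9%), and the intervals overlap. From 251 to 1000 bp lay 23.1% (19.7 to 26.9%) of the 520 members with a gap under 1 kb to a replicate 1 peak, against 5.29% (4.24 to 6.58%) of the 1418 members at 1 kb or more. The share in the 1418 is below the 7.46% of overlapping peaks. The rule bars members from bases that replicate 1 peaks cover, so it bears on where members can lie around starts with such peaks, and its part in these shares was not tested. Of the same 520 members, 32.9% (29 to 37%) lay within 1 kb of a start, against 13% (11.4 to 14.9%) of the 1418. Of the 356 members within 1 kb of a start, 159 lay upstream, 196 downstream and 1 on the start base. Without peaks on the start base, 44.8% of members (39.7 to 50%) lay upstream. The share was 53% (51.5 to 54.4%) in overlapping peaks and 47.5% (46 to 49.1%) in replicate 1-only peaks. It was 40.4% (33.3 to 47.8%) in members with a gap under 1 kb to a replicate 1 peak. In members at 1 kb or more it was 48.9% (41.8 to 56.1%), an interval that includes the 53%. With the Ensembl transcripts listed in the authors' deposited table in place of RefSeq starts, 14.1% of members, 20.5% of overlapping peaks and 16.9% of replicate 1-only peaks lay within 1 kb. That table lists transcripts near reproducible regions, so its shares depend on them.

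Inside protein-coding genes lay 1097 members (54.4%, interval 52.3 to 56.6%), against 55% of overlapping peaks, 58% of replicate 1-only peaks and 54.9% of all replicate 2 peaks. Outside any annotated gene lay 745 members (37%, 34.9 to 39.1%), against 35.3% of overlapping peaks and 33.1% of replicate 1-only peaks. Without the 70 members of high background the share outside genes was 35.2%. Exons and UTRs were not told apart, since the gene table used gives only the span of each gene.

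The members with the highest fold enrichment within 1 kb of a start belonged to genes of many cellular tasks. Tob1 led with 5.12-fold enrichment at 59 bp from the start by the midpoint, and a replicate 1 peak lay 491 bp away. The next were members with 18 fragments and 4.86-fold enrichment each, at Tmem127, a membrane protein of mTOR signalling, at Lonp2, the protease of peroxisomes, at Plch1, and at Atg2a, a lipid transfer protein of autophagy. The gaps to replicate 1 were 131 bp at Tmem127, 11 kb at Lonp2, 5.53 kb at Plch1 and 122 bp at Atg2a. Tomm20, an import receptor of mitochondria, had a member with 19 fragments and 4.7-fold enrichment at 9.56 kb from any replicate 1 peak. Brap, a ubiquitin ligase that binds BRCA1, had 1 with 21 fragments and 4.61-fold enrichment at 24.9 kb. Baz2a, a subunit of a nucleolar chromatin remodeller, had 1 with 17 fragments and 4.61-fold enrichment at 0.317 kb. Of the 356 start-proximal members, 171 (48%) had a gap under 1 kb to a replicate 1 peak, against 26.6% of all members. A reproducible region lay within 5 kb of 78 of the 356, and of 18.9% of all members.

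Of the 20665 protein-coding autosomal genes, 1400 (6.77%) had a member inside them or within 5 kb. Most of these genes had other peaks too. Of the 1400, 986 (70.4%) also had an overlapping replicate 2 peak inside or within 5 kb, a property of 43.5% of all protein-coding genes, and 216 (15.4%) had no other peak of either replicate. There were 119 genes with 2 or more members and 13 with 3 or more. Nav2, a gene of nerve cell migration that spans 651 kb, had 5, and 4 genes had 4 each. These were Ccdc88c, which spans 118 kb, Nfia, spanning 541 kb, Npas3, spanning 824 kb, and Lsamp, spanning 2197 kb. Gene lengths differ between lists, so a list is set below beside all genes and beside the genes with an overlapping peak, of which 11% had a member.

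Of 40 genes of the JAK-STAT and gp130 pathway, which CNTF activates, 1 had a member inside or within 5 kb (2.5%, interval 0.443 to 12.9%) and 27 had an overlapping replicate 2 peak there. The gene with a member was Jak2, a kinase bound to the receptor. That member had 13 fragments and 3.29-fold enrichment inside the gene, at 2.9 kb from a reproducible region. Of 34 known STAT3 target genes, 2 had a member (5.88%, 1.63 to 19.1%) and 29 had an overlapping peak. Both intervals include the 6.77% over all protein-coding genes. Those with a member were Vegfa, the vascular growth factor, with 15 fragments and 4.1-fold enrichment at 1.56 kb from a replicate 1 peak, and Bcl6, with 16 fragments and 3.54-fold enrichment at 348 bp from one. Among genes with an overlapping peak, 3.7% of the pathway list and 6.9% of the STAT3 targets had a member, against 11% over all such genes. No member lay inside or within 5 kb of Socs3, the feedback inhibitor of the pathway, of Stat3 itself, or of Junb, Fos, Bcl3, Gfap or Olig2.

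Of 36 immediate early genes, which respond within minutes to a signal, 5 had a member (13.9%, interval 6.08 to 28.7%) and 33 had an overlapping peak. The transcription factor genes Maff and Klf6 had 18 fragments each, with 4.86-fold and 4.62-fold enrichment, and Ccn1, a matrix signalling protein, had 13 fragments and 3.58-fold enrichment. The interval of the immediate early genes includes the share of 6.77% over all genes. In the list of Notch, BMP and Wnt signalling 6 of 40 genes had a member (15%, 7.06 to 29.1%), led by Hey1, a Notch effector, with 4.46-fold enrichment at 47 bp from a start. In the list of survival and cell death it was 3 of 31 (9.68%, 3.35 to 24.9%), led by Trp53. In the cell cycle list it was 3 of 38 (7.89%, 2.72 to 20.8%), led by Ccne2, which encodes cyclin E2, with 4.35-fold enrichment. In the list of interferon-stimulated genes it was also 3 of 38, led by Adar. Of these 4 lists, the intervals of survival, cell cycle and interferon genes include 6.77%. That of Notch, BMP and Wnt genes begins just above it, at 7.06%. An overlapping peak was held by 80% of the Notch, BMP and Wnt genes, against 43.5% of all genes. Among such genes, 18.8% of this list had a member, against 11% over all genes with an overlapping peak. That share was 15.2% in immediate early, 13% in survival, 8.33% in cell cycle and 6.25% in interferon genes, without intervals. Hey1 and Tcf7l2 also count, with the same members, in the lineage list below.

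Shares were higher in the lists of the oligodendrocyte lineage. Of 40 transcription factor genes of the lineage, 10 had a member (25%, interval 14.2 to 40.2%), against 6.77% of all protein-coding genes. Each of these 10 also had an overlapping replicate 2 peak, as did 36 of the 40, and of those 36 genes 27.8% had a member, against 11% of all genes with an overlapping peak. Sox5, which holds back oligodendrocyte maturation, had 3 members of 4.67-fold, 3.58-fold and 3.58-fold enrichment in a span of 954 kb. Sox11, a factor of neural progenitors, had a member with 18 fragments and 4.44-fold enrichment at 727 bp before the start, at 380 bp from a replicate 1 peak. Of 26 genes of oligodendrocyte progenitors, 6 had a member (23.1%, 11 to 42.1%), among them Lhfpl3 with 4.49-fold enrichment, Cacng4, a subunit that guides AMPA receptors, with 3.94-fold, and Vcan, the proteoglycan versican, with 3.18-fold at 22 bp from a start. Of 35 myelin genes, 7 had a member (20%, 10 to 35.9%). With a window of 1 kb in place of 5 kb, the shares were 25% of the transcription factor genes, 23.1% of the progenitor genes and 8.57% of the myelin genes, against 5.71% of all protein-coding genes. Among genes with an overlapping peak, 24% of the progenitor genes and 33.3% of the myelin genes had a member. Higher shares in these lists were not particular to members. Replicate 1-only peaks lay inside or within 5 kb of 87.5% of the transcription factor genes, 76.9% of the progenitor genes and 51.4% of the myelin genes. Over all protein-coding genes that share was 40.1%. Gene length and the number of peaks per gene were not accounted for, and no list was tested.

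Mbp, which encodes myelin basic protein, had a member inside the gene at chr18:82549368-82549627 with 19 fragments and 5.12-fold enrichment. It lay 4.97 kb before the nearest start in the authors' deposited table and 11 kb from the nearest replicate 1 peak. Enpp2, which encodes autotaxin, had a member with 13 fragments and 3.58-fold enrichment at 176 bp before a start, with a replicate 1 peak at 232 bp. Cnp, a phosphodiesterase of myelin, had a member with 12 fragments and 3.33-fold enrichment outside the gene at 1.61 kb. The member near Tmem125 was 1 of the 70 of high background, with 137 fragments and 1.58-fold enrichment.

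The lists of other cell types were set beside the same share of 6.77% over all genes. Of 26 astrocyte genes 4 had a member (15.4%, interval 6.15 to 33.5%), which were Slc1a3, a glutamate transporter with 3.17-fold enrichment, S100b, a calcium-binding protein with 3.07-fold, Vim, an intermediate filament with 3.05-fold, and Gli3 with 2.92-fold. Of 24 neuron genes 2 had a member (8.33%, 2.32 to 25.8%), Map2 with 4.7-fold and Elavl4 with 3.07-fold enrichment. Of 26 endothelial and fibroblast genes 1 had a member (3.85%, 0.682 to 18.9%), the receptor gene Tek with 19 fragments and 5.12-fold enrichment. Tek had no other peak of either replicate within 5 kb. These 3 intervals include the share over all genes. Among genes with an overlapping peak, 11% over all genes had a member. The share was 14.3% for astrocyte, 15.4% for neuron and 0% for endothelial and fibroblast genes. Of 77 ribosomal protein genes 3 had a member (3.9%, 1.33 to 10.8%), and of 1104 olfactory receptor genes 0, with an upper limit of 0.347%. Among those with an overlapping peak, the shares were 3.92% and 0%.

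Of 919 microRNA hairpins in the RefSeq table, members overlapped 1, Mir7237 on chromosome 8, and lay within 1 kb of 3. The 24094 overlapping replicate 2 peaks overlapped 18 hairpins and lay within 1 kb of 67. The whole Mir7237 hairpin at chr8:121978024-121978086 lies inside a member of 13 fragments and 2.92-fold enrichment. Mir6390, at chr14:105623642-105623770, lay 6 bp from a member of 13 fragments and 3.58-fold enrichment. Mir9-3, at chr7:79505264-79505353, encodes miR-9, a microRNA of neural progenitors, and a member of 11 fragments and 3.07-fold enrichment lay 844 bp from it. Mature sequences of these 3 are given from RefSeq as the RNA products next to the members, with the seed in capitals (bases 2 to 8), and no seed is shared among the 5.
mmu-miR-7237-5p: aUGGUAGCuugugacaggacuggc
mmu-miR-7237-3p: cAUCCUGUugagcuuaccgagc
mmu-miR-6390: gAAUUGAUcaggauguaacca
mmu-miR-9-5p: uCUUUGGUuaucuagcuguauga
mmu-miR-9-3p: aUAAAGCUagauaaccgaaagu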

How the data were processed

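pSTAT3 ChIP replicates 1 and 2 were compared; no label pairs a ChIP with an input, and inputs are not used here. Per the submitters' processing notes, CASAVA 1.8, Bowtie2 and MACS2 were used with build GRCm38.p3, without options. In the deposited peak lists, pileup is a signal (fragments at the summit) and fold enrichment a ratio, per the file headers. A pair of deposited columns with damaged headers hold -log10 p and -log10 q, judged by value: recomputed from pileup and fold by a Poisson tail, -log10 p matched within 1% in 99.985% of the replicate 2 list and 99.6% of the replicate 1 list. In the authors' deposited region table, the column of adjusted p-values holds the IDR, going by the title, up to 0.05. Implied background was taken as the pileup plus 1 over the fold, less 1.

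Overlap was 1 bp or more and positions are 1-based. Starts, gene spans and sequences came from RefSeq tables of GRCm38.p6, a later patch of the same assembly, and are not complete. Shares have 95% Wilson intervals and medians order-statistic intervals, which cover counting error only. Read totals are not given, so the caller's background is the measure of depth. Interval steps were tested on simulated data. Tools were Python 3.11.15 with scipy 1.17.1, pandas 2.3.3, numpy 2.4.6 and matplotlib 3.10.9.

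Members, 16 gene lists and named genes were chosen with earlier results of these data known. Named members were the 12 of highest pileup, of highest fold and of highest fold within 1 kb of a start, the 8 farthest from replicate 1 among those with at least the median fold, the 3 nearest to it, those within 5 kb of a start of 8 genes (Socs3, Stat3, Junb, Fos, Bcl3, Gfap, Mbp, Olig2) and up to 3 genes per list. Regions, microRNAs and other genes named, the background of 20 fragments, the 1 kb split of gaps and the motifs were chosen after their values were seen. Alternatives were other overlaps, gaps, q thresholds, chromosomes, IDR limits, peak points, gene models and windows. Nothing was tested for chance. The result of 1 gene list is not reported here.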

Additional observations from a re-analysis of the deposited data

Results flagged for a closer look

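A pair of sequences outside the 19 autosomes carried replicate 2-only peaks at high pileup. On the mitochondrial genome, replicate 2 had 14 peaks and replicate 1 had 0, so all 14 were replicate 2-only, with 202 to 240 fragments and a median fold enrichment of 1.44. On 1 unplaced scaffold, 56 of 60 replicate 2 peaks overlapped none of the 6 replicate 1 peaks, with 74 to 298 fragments over the 60 and a median fold enrichment of 1.79. These are set apart because the rule leaves such sequences out. On chromosome X there were 32 replicate 2-only peaks among 413 and on chromosome Y 2 among 15. The cause was not tested.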

How the results depend on the processing

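Of 41 recomputed values over 9 results, 22 stayed within the interval, 1 SD or 1.5 times of the value reported, and 19 moved. The 9 that leave out members with a background over 20 fragments, added after the data were seen, were all among the 22. The count of 2015 members fell to 233 at a -log10 q of at least 5 and to 51 at 10, of which 50 had high background, and was 1480 to 2386 under the other overlap rules and with X and Y. At 5 and 10, the median pileup was 19 and 260 fragments, the median fold 4.58 and 1.87, the median width 194 and 242 bp, the share within 25 kb of a region 29.2% and 0%, and the share within 1 kb of a start 9.5% and 0%. With no replicate 1 peak within 1 kb, 34.9% lay within 25 kb of a region and 13% within 1 kb of a start. With less than 50% covered, the median width was 185 bp and 20.9% lay within 1 kb of a start. With an IDR of 0.01, 36% lay within 25 kb of a region, since fewer regions are left. With the region table's transcripts, 14.1% lay within 1 kb of a start. With a window of 25 kb, 2318 genes had a member. No replicate could be left out, because the rule needs both. No paired analysis was possible because the members come from 1 library and no test was made. The unknown number of reads limits any reading of a missing replicate 1 call.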
